A study of Homo sapiens with 9 samples.

Results

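RNA counts of 10 genes that make, destroy, sense or export sphingosine-1-phosphate (S1P) were compared between H295R cells with and without a change at SGPL1, the S1P lyase gene. The 10 genes were chosen by symbol for these roles: the lyase SGPL1, the aldehyde dehydrogenase ALDH3A2, the kinases SPHK1 and SPHK2, the phosphatases SGPP1 and SGPP2, the receptors S1PR2 and S1PR3, and the transporters ABCC1 and SPNS2. Each matched 1 Ensembl identifier among the 60671 genes of the count files.

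H295R is a human adrenocortical carcinoma line that secretes steroid hormones. Polyadenylated RNA was sequenced from 3 groups of 3 libraries: cells without a stated change (WT), cells with SGPL1 knocked out (KO) and cells made to overexpress SGPL1 (OE), all grown in the same medium and given no treatment. The design text speaks of biological replicates, but none of the sources used here names separate cultures or clones, so a p-value reflects only how much these libraries vary, which may be technical. The site and kind of the edit in KO, whether KO is 1 clone, and the construct and promoter in OE were not stated in those sources.

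S1P is a signalling lipid that sphingosine kinases form from sphingosine. Phosphatases of the endoplasmic reticulum turn it back into sphingosine for reuse, whereas the lyase splits it for good into phosphoethanolamine and a long-chain aldehyde, which a fatty aldehyde dehydrogenase oxidizes. Exported S1P acts on G protein-coupled receptors at the cell surface, and inherited loss of SGPL1 is a known cause of adrenal insufficiency with kidney disease.

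Library totals ran from 8006873 to 10895080 counts. All 8 adrenocortical markers examined (NR5A1, STAR, CYP11A1, CYP17A1, HSD3B2, CYP21A2, MC2R and INHA) had counts in every group, with a summed level of 1615 to 1812 counts per 1000000 TMM-scaled counts (CPM) in WT, 1938 to 2358 in KO and 2087 to 2448 in OE-labelled libraries. Single markers differed more than the sum. At an edgeR adjusted p under 0.05, STAR, HSD3B2 and INHA were higher in KO than in WT, where 18.8% of all genes tested differed. CYP11A1, HSD3B2 and CYP21A2 were higher in OE-labelled libraries than in WT, where 20.7% differed. None of the 8 was lower in either comparison. HSD3B2 was at 13.8 ± 0.800 CPM in WT and 102.8 ± 5.96 in OE-labelled libraries. The 6 fibroblast, 6 endothelial and 6 leukocyte markers summed to at most 3.04, 1.75 and 1.30 CPM in any library, and the chromaffin genes TH, DBH and PNMT were at 0 counts in all 9. A further chromaffin marker, CHGA, was detected, with 18 to 38 counts in WT, 18 to 24 in KO and 8 to 22 in OE-labelled libraries. Of 5 epithelial markers, KRT5 and KRT14 were at 0, and the sum, nearly all EPCAM, was 24.3 to 28.9 CPM in WT, 11.0 to 13.4 in KO and 27.9 to 32.2 in OE-labelled libraries. Its part in the differences between groups was not tested. Libraries also differed in how counts depended on gene length. The slope of log2 CPM on log2 gene length, relative to the mean of the groups, came to 0.06, -0.05 and 0.10 in WT replicates 1 to 3, 0.04, 0.09 and 0.13 in KO, and -0.07, -0.20 and -0.08 in OE-labelled libraries. Long genes thus had relatively fewer counts in OE-labelled libraries, most of all in replicate 2, and WT replicate 2 stood apart from the other WT libraries. In bulk RNA, less RNA per cell and fewer cells that make it cannot be told apart.

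In KO, SGPL1 was at 51.2% of its WT level and ALDH3A2, which acts just after it, was 1.25 times its WT level. In OE-labelled libraries, SGPL1 counts were not higher than in WT, while SPHK1 was higher and ABCC1 lower. These libraries are therefore named by their label throughout. Of the 10 genes, 8 passed the filter on low counts and were tested among 14150 genes. SGPP2 and SPNS2, with at most 2 and 7 counts in any library, did not pass. At an edgeR adjusted p under 0.05, 2 of the 8 were called in KO against WT, where 18.8% of all genes tested were called. In OE against WT 2 of the 8 were called, beside 20.7% of all genes. In OE against KO 3 of the 8 were called, beside 39.7%. The counts are near these shares. Libraries of the 2 groups did not overlap for 5 of the 8 in KO against WT, beside 35.2% of all genes tested. They did not overlap for 5 of the 8 in OE against WT, beside 36.4%, and for 3 in OE against KO, beside 51.7%. A gap between groups was thus common among all genes. The median log2 fold change of the 8 was 0.22 in KO against WT, 0.20 in OE against WT and 0.03 in OE against KO, while that of all genes tested was -0.01, -0.01 and -0.004. The 3 comparisons share their groups, so they are not independent of each other. The ALDH3A2 call in KO and the SPHK1 call in OE against WT were lost under 8 and 5 of 19 other ways of processing. ALDH3A2 was also 1.16 times its WT level in OE-labelled libraries, without a call.

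**Figure D1:**
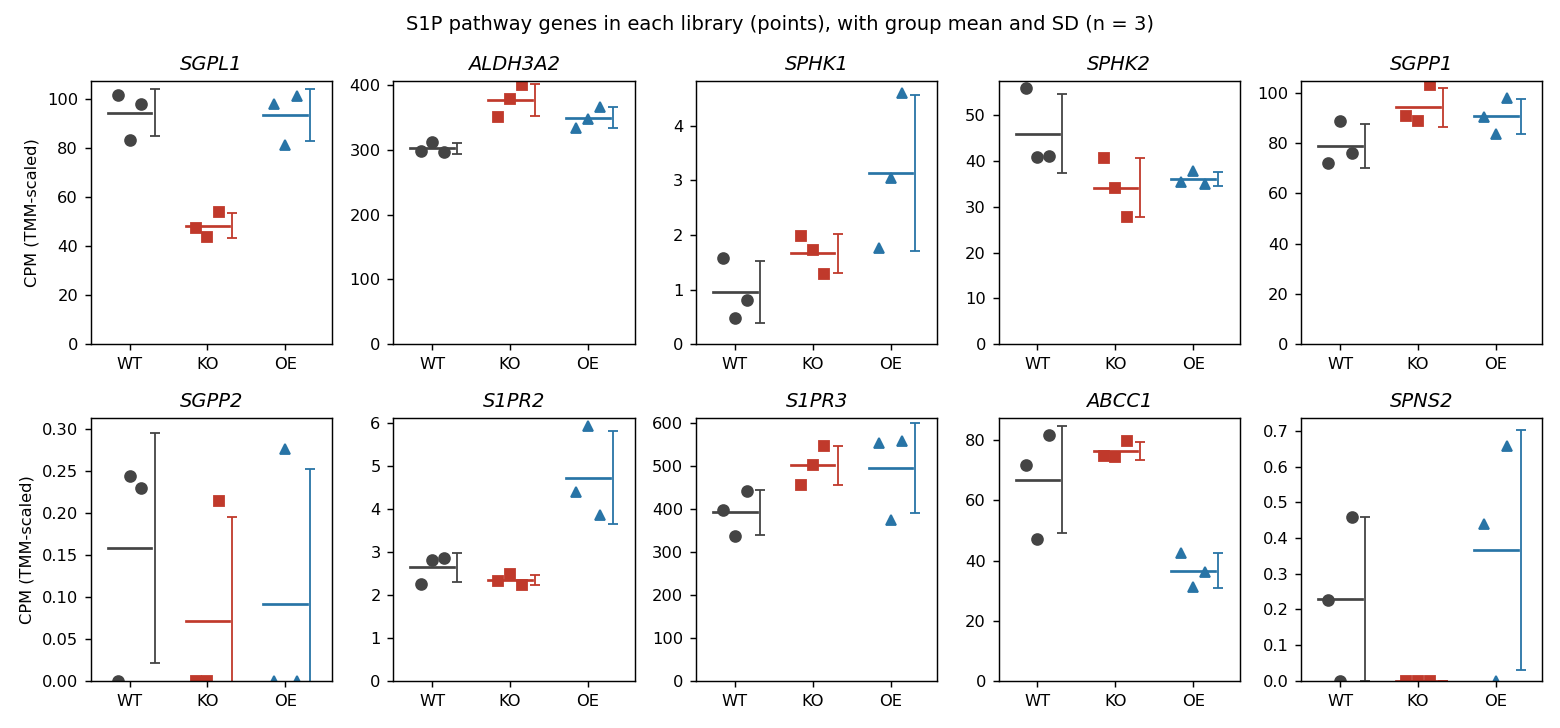
Level of each of the 10 genes in every library, in CPM scaled by TMM, the trimmed mean of M-values, with 1 panel per gene, points for libraries, a line for the group mean and a bar for the SD (n = 3). SGPL1 in KO lies between 43.9 and 53.8 CPM, below all other libraries, and ABCC1 in OE-labelled libraries lies between 31.1 and 42.7 CPM, below all WT and KO libraries.

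**Figure D2:**
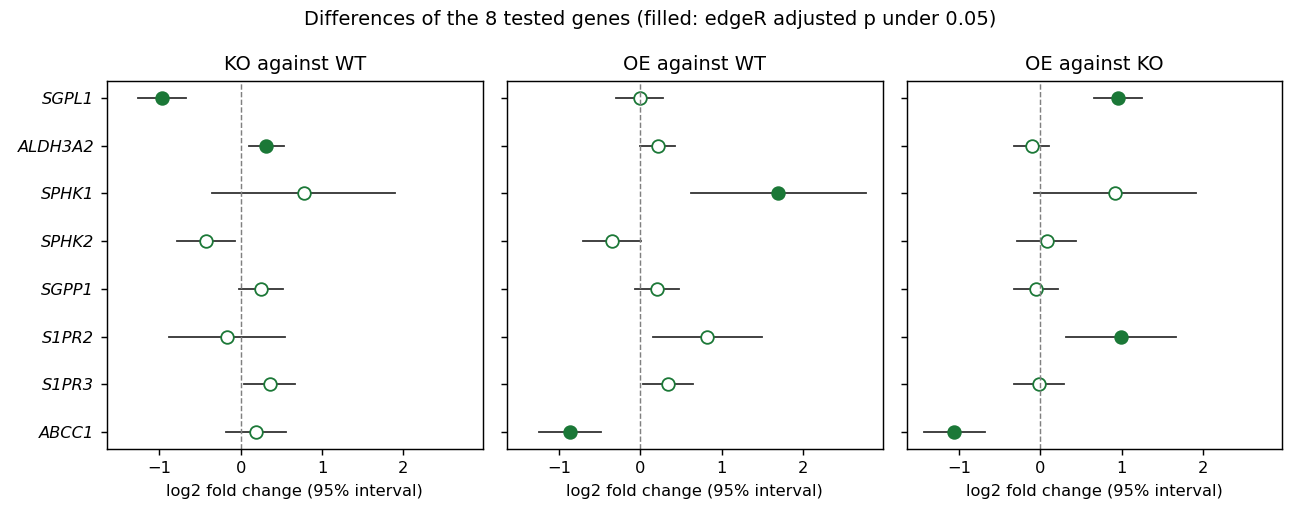
Log2 fold change of the 8 tested genes in the 3 comparisons, with 95% intervals as lines and filled points for an edgeR adjusted p under 0.05. The interval of SPHK1 is the widest of the 8, and SGPL1 lies at -0.97 in KO against WT and at -0.01 in OE against WT.

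Sequences just before an annotated start are shown for called genes as a description. Counts were summed over all exons of a gene, so which start these cells use was not measured. A window of 250 bases before an annotated start was taken from RefSeq (GRCh38.p14). Of the 10 genes 7 had an entry, and 6 had a window that holds none of the gene's own exons. Among the 5 genes called in any comparison, such a window was found for SGPL1 (chr10:70815698-70815947, plus strand), SPHK1 (chr17:76384359-76384608, plus strand), ALDH3A2 (chr17:19647886-19648135, plus strand) and S1PR2 (chr19:10231332-10231581, minus strand). They are written 5′ to 3′ on the gene's strand, with capitals for 3 motifs searched on both strands: the GC box GGGCGG, the cAMP response element TGACGTCA and the TATA box TATAAA.
SGPL1: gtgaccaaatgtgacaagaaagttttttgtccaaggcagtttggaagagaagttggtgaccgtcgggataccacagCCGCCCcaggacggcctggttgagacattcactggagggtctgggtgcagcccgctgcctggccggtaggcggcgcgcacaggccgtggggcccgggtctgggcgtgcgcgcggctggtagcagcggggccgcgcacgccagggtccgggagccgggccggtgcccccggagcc
SPHK1: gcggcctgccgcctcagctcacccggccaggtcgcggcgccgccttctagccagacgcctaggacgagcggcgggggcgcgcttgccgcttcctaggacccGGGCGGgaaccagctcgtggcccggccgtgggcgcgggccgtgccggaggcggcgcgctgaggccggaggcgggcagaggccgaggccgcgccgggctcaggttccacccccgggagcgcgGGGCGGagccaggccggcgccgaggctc
ALDH3A2: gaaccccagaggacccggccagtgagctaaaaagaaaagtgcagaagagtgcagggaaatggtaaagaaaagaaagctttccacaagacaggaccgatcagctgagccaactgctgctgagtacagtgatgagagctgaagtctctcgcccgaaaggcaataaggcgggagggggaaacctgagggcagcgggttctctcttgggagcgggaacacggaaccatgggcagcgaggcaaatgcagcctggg
S1PR2: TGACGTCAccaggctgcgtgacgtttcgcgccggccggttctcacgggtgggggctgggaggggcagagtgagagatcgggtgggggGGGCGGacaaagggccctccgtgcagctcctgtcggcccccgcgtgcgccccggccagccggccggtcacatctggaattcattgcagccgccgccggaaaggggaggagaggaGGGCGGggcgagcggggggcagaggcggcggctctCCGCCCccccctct
The SGPL1 window holds 1 GC box and that of SPHK1 holds 2. The S1PR2 window holds 3 GC boxes and 1 cAMP response element. The ALDH3A2 window holds none of the 3 motifs, and it has the lowest share of G and C of the 4, 55.6%, against 68.8% for SGPL1, 74.0% for S1PR2 and 80.8% for SPHK1. A further ALDH3A2 window (chr17:19648501-19648750), before another annotated start and over one of the gene's own exons, holds 4 GC boxes and has 73.2% G and C. SPHK1 also has such windows over its own exons, at chr17:76382954-76383203 with 1 GC box and at chr17:76385028-76385277 with 0. Among 35116 RefSeq windows of the same length, 42.6% held a GC box, 1.65% a cAMP response element and 10.7% a TATA box. A match is a description of these letters and not a measured site.

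SGPL1 (ENSG00000166224, chromosome 10, 70815948 to 70881184, plus strand, GRCh38) encodes the lyase, the enzyme that irreversibly removes S1P from the sphingolipid pool. Its level was 101.5, 83.4 and 98.1 CPM in WT replicates 1 to 3, 47.2, 43.9 and 53.8 CPM in KO, and 98.1, 81.3 and 101.2 CPM in OE-labelled libraries. All KO libraries lay below all others, and the WT and OE ranges overlapped. SGPL1 fell by 0.97 ± 0.14 on the log2 scale in KO against WT (SE; 95% interval -1.26 to -0.67; edgeR adjusted p = 0.000105). The OE against WT log2 fold change was -0.01 ± 0.14 (95% interval -0.30 to 0.27; edgeR adjusted p = 0.966), so a change within that interval was not excluded. With counts corrected for the length trend it was 0.14 ± 0.12 by the gene's whole exon length and 0.24 ± 0.11 by its principal transcript (edgeR adjusted p = 0.416 and 0.122). Between OE and KO, OE was higher by 0.95 ± 0.14 (edgeR adjusted p = 6.7e-05). Reads of an edited transcript still count toward the gene, and a coding sequence on a vector adds counts only where its reads map to the gene. The 50 tested genes nearest to SGPL1 had a median log2 fold change of 0.002 in KO against WT.

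The 5 tested genes on either side of SGPL1 had log2 fold changes from -0.91 to 1.14 in KO against WT, with a median of -0.15, and 2 of these 10 were called, near the 18.8% of all genes. Another 2 of the 10 were called in OE against WT, beside 20.7% of all genes. All 4 were named after their values were seen. PCBD1 (chromosome 10, 70882280 to 70888565, minus strand), which recycles the pterin cofactor of aromatic amino acid hydroxylases, is the next tested gene after SGPL1 and lies tail to tail with it. Its level was 13.6, 17.2 and 13.3 CPM in WT, 8.06, 7.35 and 8.02 CPM in KO, and 15.1, 20.6 and 20.03 CPM in OE-labelled libraries. It fell by 0.91 ± 0.20 in KO against WT (edgeR adjusted p = 0.00339), with KO below all other libraries. UNC5B, a netrin receptor gene farther along the chromosome, rose by 1.14 ± 0.26 in KO against WT (edgeR adjusted p = 0.00502). In OE against WT, PCBD1 had a log2 fold change of 0.33 ± 0.19 and UNC5B of -0.11 ± 0.27, and neither was called (edgeR adjusted p = 0.214 and 0.810). The genes called there were PPA1, an inorganic pyrophosphatase, which rose by 0.54 ± 0.13, and PSAP, the precursor of the lysosomal saposins, which fell by 0.35 ± 0.11 (edgeR adjusted p = 0.00770 and 0.0291). The PPA1 call was lost without WT replicate 1 (edgeR adjusted p = 0.0519). The PSAP call was lost under 6 of 19 other ways of processing, with an edgeR adjusted p up to 0.122 when OE replicate 3 was left out. The calls of PCBD1 and UNC5B in KO against WT were kept under all 19 other ways of processing that were run.

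**Figure D3:**
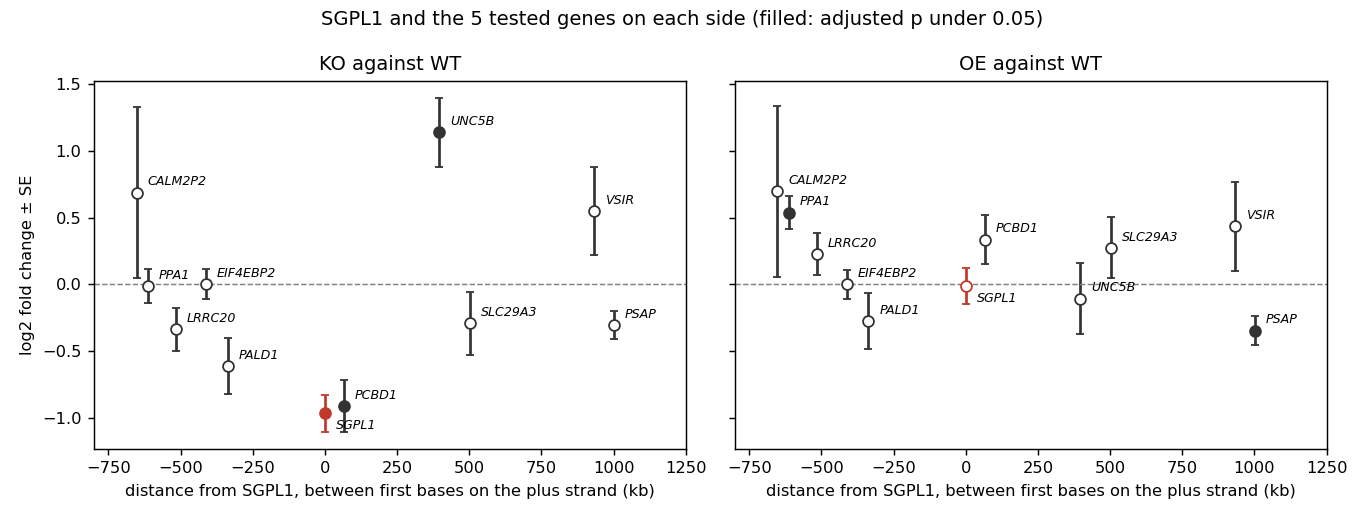
Log2 fold change (± SE) of SGPL1 (red) and of the 5 tested genes on each side of it, by distance in kilobases (kb) between first bases on the plus strand, in KO against WT and OE against WT, with filled points for an adjusted p under 0.05. In KO against WT PCBD1 lies at -0.91 beside SGPL1 at -0.97, while UNC5B lies at 1.14.

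ALDH3A2 (ENSG00000072210, chromosome 17, 19648136 to 19685760) encodes the fatty aldehyde dehydrogenase that oxidizes the lyase's aldehyde product. It stood at 299.1, 311.8 and 296.2 CPM in WT, 351.0, 379.2 and 399.7 CPM in KO and 334.5, 348.0 and 366.3 CPM in OE-labelled libraries. All KO and all OE libraries lay above all WT libraries. It rose by 0.32 ± 0.10 on the log2 scale in KO against WT (95% interval 0.10 to 0.53; edgeR adjusted p = 0.0370). That call was lost when WT replicate 1 or 3, KO replicate 2 or 3, or OE replicate 3 was left out (edgeR adjusted p = 0.118, 0.0946, 0.121, 0.132 and 0.0551). It was also lost with library totals in place of TMM scaling (0.26, edgeR adjusted p = 0.0809), without the filter on low counts (edgeR adjusted p = 0.0577) and with the correction for whole exon length (0.18, edgeR adjusted p = 0.282). The OE against WT log2 fold change was 0.21 ± 0.10 (edgeR adjusted p = 0.152). The length correction made it 0.58 by whole exon length and 0.31 by the principal transcript, both called (edgeR adjusted p = 0.00159 and 0.0176). The OE against KO difference was -0.11 ± 0.10 (edgeR adjusted p = 0.423) and turned to 0.40 (edgeR adjusted p = 0.00907) by whole exon length, but only to 0.03 (edgeR adjusted p = 0.826) by the principal transcript. The exons of all its transcripts together span 15331 bases, the principal transcript 3928.

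SPHK1 (ENSG00000176170, chromosome 17, 76376584 to 76387860), the largely cytoplasmic kinase, was near the limit of detection. It had 14, 4 and 7 counts in WT replicates 1 to 3, 17, 16 and 12 counts in KO, and 16, 22 and 49 counts in OE-labelled libraries. This equals 1.58, 0.489 and 0.805 CPM in WT, 1.99, 1.73 and 1.28 CPM in KO, and 1.76, 3.04 and 4.61 CPM in OE. The summed counts per group were 25 (95% exact Poisson interval 16.2 to 36.9, for counting error only) in WT, 45 (32.8 to 60.2) in KO and 87 (69.7 to 107.3) in OE. Every library labelled OE lay above every WT library, by a small margin for OE replicate 1, and the KO range overlapped both. SPHK1 rose by 1.69 ± 0.51 in OE against WT (95% interval 0.62 to 2.77; edgeR adjusted p = 0.0266). Leaving out WT replicate 2 or 3 or OE replicate 2 or 3 ended that call (edgeR adjusted p = 0.0696, 0.104, 0.0523 and 0.148), as did leaving out both WT replicate 2 and OE replicate 2 (edgeR adjusted p = 0.0924). Its log2 fold change was 0.77 ± 0.53 in KO against WT (edgeR adjusted p = 0.357) and 0.92 ± 0.47 in OE against KO (edgeR adjusted p = 0.133).

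SPHK2 (ENSG00000063176, chromosome 19, 48619291 to 48630717), the kinase also found in the nucleus and mitochondria, was the main sphingosine kinase transcript. Its level was 56.1, 41.0 and 41.1 CPM in WT, 40.8, 34.0 and 27.8 CPM in KO, and 35.4, 37.8 and 35.1 CPM in OE-labelled libraries. The WT libraries lay above the other 6, though KO replicate 1 was only just below the lowest of them. None of the 3 differences was called: -0.43 ± 0.17 in KO against WT, -0.35 ± 0.17 in OE against WT and 0.08 ± 0.17 in OE against KO (edgeR adjusted p = 0.0881, 0.146 and 0.751). The KO against WT difference was called without KO replicate 1 (-0.57, edgeR adjusted p = 0.0431), without both WT replicate 2 and OE replicate 2 (-0.51, edgeR adjusted p = 0.0374) and with the correction for principal transcript length (-0.43, edgeR adjusted p = 0.0447). Of its exon bases 22.3% overlap DBP and a further gene on the opposite strand, and reads there were not counted because strand was ignored. Per kilobase of exon, SPHK1 made up 1.60% to 3.70% of the summed level of both kinases in WT, 5.91% to 6.47% in KO and 6.33% to 15.2% in OE-labelled libraries, with no overlap of WT and the other groups. These shares rest on only 4 to 14 SPHK1 counts per library in WT and 12 to 17 in KO. Neither kinase was called in KO against WT.

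SGPP1 (ENSG00000126821, chromosome 14, 63684216 to 63728065, minus strand) encodes the phosphatase that returns S1P to sphingosine. It was at 72.0, 88.9 and 76.3 CPM in WT, 90.6, 88.9 and 103.1 CPM in KO, and 90.4, 83.7 and 97.9 CPM in OE-labelled libraries. The lowest KO library and the highest WT library both rounded to 88.9 CPM, the KO one being marginally higher. The log2 fold change was 0.25 ± 0.13 in KO against WT, 0.20 ± 0.13 in OE against WT and -0.05 ± 0.13 in OE against KO, none of them called (edgeR adjusted p = 0.192, 0.290 and 0.766). Without both WT replicate 2 and OE replicate 2, the first became 0.34 and the next 0.36, both called (edgeR adjusted p = 0.0468 and 0.0499). Its relative SGPP2 (ENSG00000163082, chromosome 2, 222424543 to 222562621) had 0, 2 and 2 counts in WT, 0, 0 and 2 counts in KO, and 0, 2 and 0 counts in OE-labelled libraries. These counts are under the 3 counts per library taken as the limit of detection, so no fold is given, and SGPP1 supplied nearly all counts of this pair.

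S1PR3 (ENSG00000213694, chromosome 9, 88990863 to 89005155) couples to Gi, Gq and G12/13 proteins and had the highest CPM of the 10 genes. Its level was 398.4, 337.6 and 441.8 CPM in WT, 457.0, 502.3 and 546.9 CPM in KO and 553.9, 375.5 and 557.4 CPM in OE-labelled libraries. KO lay above WT without overlap, and OE replicate 2 fell inside the WT range. The log2 fold change was 0.35 ± 0.15 in KO against WT, 0.34 ± 0.15 in OE against WT and -0.02 ± 0.15 in OE against KO, none called (edgeR adjusted p = 0.104, 0.111 and 0.936). With the length correction the OE against WT difference became 0.68 by whole exon length and 0.72 by the principal transcript, both called (edgeR adjusted p = 0.000212 and 2.3e-05), and OE against KO became 0.44 and 0.51 (edgeR adjusted p = 0.00217 and 0.00016). Without OE replicate 2, whose length slope is the lowest, OE against WT was 0.52 (edgeR adjusted p = 0.00892), and it was also called without the filter on low counts (0.36, edgeR adjusted p = 0.0284) and without both WT replicate 2 and OE replicate 2 (0.42, edgeR adjusted p = 0.00552). The KO against WT difference was called without OE replicate 2, without the filter on low counts and with only the 2 groups in the fit (edgeR adjusted p = 0.0249, 0.0214 and 0.0489). The gene model also takes in shorter transcripts that end before the principal transcript starts, and the counts do not separate them. The 50 tested genes nearest to S1PR3 had a median log2 fold change of -0.37 in KO against WT and -0.21 in OE against WT. In KO against WT, 14 of the 50 were called lower and 3 higher. In each of these comparisons 34 of the 50 were below 0 and 16 were above 0, as was S1PR3, which was not called.

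S1PR2 (ENSG00000267534, chromosome 19, 10221433 to 10231331, minus strand), a receptor known for strong coupling to G12/13 proteins, was far lower. It had 20, 23 and 25 counts in WT, 20, 23 and 21 counts in KO, and 40, 43 and 41 counts in OE-labelled libraries. The level was 2.26, 2.81 and 2.88 CPM in WT, 2.34, 2.49 and 2.25 CPM in KO, and 4.40, 5.95 and 3.86 CPM in OE. All libraries labelled OE lay above all WT and KO libraries. S1PR2 rose by 0.99 ± 0.32 in OE against KO (95% interval 0.31 to 1.67; edgeR adjusted p = 0.0214). That call was lost without KO replicate 1, 2 or 3 or OE replicate 2 (edgeR adjusted p = 0.0517, 0.0514, 0.0640 and 0.0947), and without both WT replicate 2 and OE replicate 2 (edgeR adjusted p = 0.0905). The OE against WT log2 fold change was 0.82 ± 0.32 (edgeR adjusted p = 0.0765), and in KO against WT -0.17 ± 0.34 (edgeR adjusted p = 0.787). Per kilobase, S1PR3 made up 94.4% to 98.5% of the summed level of both receptors over the 9 libraries. S1PR2 shares 2.28% of its exon bases with DNMT1 on the same strand.

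ABCC1 (ENSG00000103222, chromosome 16, 15949577 to 16143074) encodes a multidrug transporter that can carry S1P out of cells. Its level was 71.8, 47.2 and 81.9 CPM in WT, 74.8, 74.5 and 79.8 CPM in KO, and 42.7, 31.1 and 36.2 CPM in OE-labelled libraries. Each library labelled OE lay below every WT and KO library, and WT replicate 2 lay well below the other WT libraries. ABCC1 fell by 0.87 ± 0.18 in OE against WT (95% interval -1.25 to -0.49; edgeR adjusted p = 0.00392). It fell by 1.06 ± 0.18 in OE against KO (edgeR adjusted p = 0.000268). Both calls were kept under all 19 other ways of processing. Corrected for the length of the principal transcript the log2 fold changes were nearer 0, at -0.56 in OE against WT and -0.65 in OE against KO (edgeR adjusted p = 0.00493 and 0.000533). In KO against WT the difference was 0.19 ± 0.18 (edgeR adjusted p = 0.516), and it changed sign, to -0.02, without WT replicate 2.

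SPNS2 (ENSG00000183018, chromosome 17, 4498881 to 4539035), the dedicated S1P exporter of endothelium, was close to silent. It had 2, 0 and 4 counts in WT, 0 in all KO libraries, and 4, 0 and 7 in OE-labelled libraries. A count of 0 allows 3 counts in a single library, which is 0.332 CPM on average in KO. A single KO library thus cannot exclude the 0.229 CPM mean of WT. For the summed KO counts, the exact Poisson interval, as used for SPHK1, ran from 0 to 0.136 CPM of library totals. Its upper end lay below the pooled WT level of 0.243 CPM but inside the WT interval of 0.0890 to 0.528 CPM. These intervals cover counting error only, and no fold is given.

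Levels can be ordered between genes only per length. As CPM per kilobase of exon, WT had S1PR3 at 28.7 ± 3.82, SGPP1 at 23.7 ± 2.63, ALDH3A2 at 19.7 ± 0.542, SGPL1 at 12.6 ± 1.28, ABCC1 at 8.84 ± 2.36, SPHK2 at 7.66 ± 1.45, S1PR2 at 0.727 ± 0.0927, SPHK1 at 0.217 ± 0.127, SPNS2 at 0.0562 and SGPP2 at 0.0317 (SD, n = 3). Neighbours in that order whose library ranges overlapped were S1PR3 and SGPP1, ABCC1 and SPHK2, SPHK1 and SPNS2, and SPNS2 and SGPP2. In KO, SGPL1 at 6.43 ± 0.673 stood below ABCC1 at 10.1 ± 0.395, and its range overlapped that of SPHK2. In OE-labelled libraries, ABCC1 at 4.84 ± 0.764 stood below SPHK2 at 6.00 ± 0.243 without overlap. The order depends on the length used: per kilobase of principal transcript, ALDH3A2 came first in WT at 77.0 ± 2.12, ahead of S1PR3 at 46.2 ± 6.15.

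The level of the other genes relative to the lyase is given as a description, since the lyase level enters each ratio. Per kilobase, the phosphatases stood at 1.60, 2.40 and 1.75 times the lyase in WT replicates 1 to 3, 4.32, 4.56 and 4.32 times in KO, and 2.07, 2.32 and 2.18 times in OE-labelled libraries. The KO libraries lay above all others. The kinases stood at 0.717, 0.624 and 0.537 times the lyase in WT, 1.15, 1.04 and 0.687 times in KO, and 0.482, 0.644 and 0.511 times in OE, and here KO replicate 3 overlapped WT. ALDH3A2 stood at 1.44 to 1.83 times the lyase in WT, 3.64 to 4.23 in KO and 1.67 to 2.10 in OE. The size of these ratios depends on the length used. Per kilobase of principal transcript, WT had ALDH3A2 at 77.0 and SGPL1 at 16.4 CPM, in place of 19.7 and 12.6. ABCC1 stood at 0.561 to 0.828 times the lyase in WT, 1.47 to 1.68 in KO and 0.355 to 0.431 in OE, so its 3 ranges did not overlap.

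**Figure D4:**
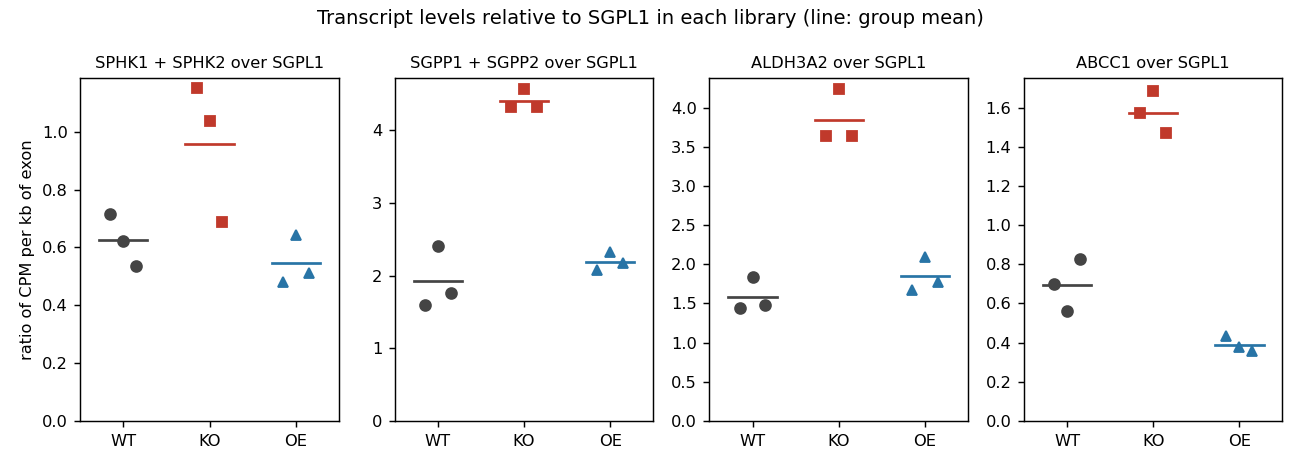
Ratio of CPM per kilobase of exon to that of SGPL1 in each library, for the kinases, the phosphatases, ALDH3A2 and ABCC1, with points for libraries and a line for the group mean. The phosphatase ratio in KO is at 4.32 to 4.56, above all WT and OE libraries.

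Of the other S1P receptors, S1PR1 was at 9.06 ± 2.47 CPM in WT, 7.31 ± 1.98 in KO and 7.90 ± 1.10 in OE-labelled libraries, with no call. S1PR5 was at 6.54 ± 0.990, 6.27 ± 1.65 and 10.6 ± 1.52 CPM, and it rose by 0.75 ± 0.24 in OE against KO (edgeR adjusted p = 0.0208). That was 1 call among 2 tested receptors of this list, beside 39.7% of all genes called in that comparison. The S1PR5 call was lost under 5 of 19 other ways of processing, with an edgeR adjusted p up to 0.0981 when 1 library was left out. S1PR4 had at most 2 counts in any library. Among other exporters and carriers, 2 of 4 were tested, and ABCA1, a cholesterol and phospholipid exporter, fell by 1.12 ± 0.32 in OE against WT (edgeR adjusted p = 0.0200), from 10.6 ± 3.74 to 4.77 ± 2.17 CPM. Its KO level was 5.78 ± 0.564 CPM, not called against WT (edgeR adjusted p = 0.0628). ABCA1 was the only call among the 2 tested, beside 20.7% of all genes called in OE against WT. That call was lost under 6 of 19 other ways of processing, with an edgeR adjusted p up to 0.132 when 1 library was left out. Neither of the 2 tested lipid phosphate phosphatases, PLPP1 and PLPP3, was called in any comparison.

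Ceramide synthases turn recycled sphingosine into ceramide, and ceramidases release it again; none of the 3 tested ceramidases was called. In KO against WT 2 of the 8 tested genes of this list rose and none fell, near the 18.8% of all genes called, with a list median of 0.09. CERS2, which favours very long acyl chains, rose by 0.40 ± 0.14 (edgeR adjusted p = 0.0491), and CERS6, which favours palmitate, rose by 0.76 ± 0.21 (edgeR adjusted p = 0.0198), from 25.2 ± 7.66 to 42.7 ± 7.43 CPM. The CERS2 call was lost under 9 of 19 other ways of processing. The CERS6 call was lost without WT replicate 1, WT replicate 2 or KO replicate 3 (edgeR adjusted p = 0.0879, 0.0875 and 0.103). In OE against WT 1 of 8 rose, beside 20.7% of all genes called: CERS5, by 0.53 ± 0.14 (edgeR adjusted p = 0.0145). That call was lost without WT replicate 1 or 3 (edgeR adjusted p = 0.0846 and 0.0671). Between OE and KO, CERS4 and CERS5 were higher in OE and CERS6 fell by 0.82 ± 0.21 (edgeR adjusted p = 0.00610). With the correction for principal transcript length the CERS6 value was -0.36 and not called (edgeR adjusted p = 0.0814). The share of all genes called in that comparison was 39.7%.

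Of the genes that carry the lyase's aldehyde product on to palmitoyl-CoA, 3 of 5 tested were called in KO against WT, beside 18.8% of all genes. ACSL4, an acyl-CoA synthetase that favours arachidonate, rose by 0.81 ± 0.20 (edgeR adjusted p = 0.00882), from 51.6 ± 9.26 to 90.5 ± 17.1 CPM. ACSL1 fell by 0.77 ± 0.19 (edgeR adjusted p = 0.00874), from 13.6 ± 1.51 to 7.96 ± 0.965 CPM, and ACSL6 fell by 1.42 ± 0.46 (edgeR adjusted p = 0.0399). The ACSL6 call was lost without WT replicate 1 or 3 or KO replicate 1 or 2 (edgeR adjusted p = 0.166, 0.0795, 0.127 and 0.108), and the ACSL4 call without WT replicate 1 or KO replicate 3 (edgeR adjusted p = 0.0604 and 0.0544). The list median was -0.41. None of the 5 was called in OE against WT, where the median was -0.06. In OE against KO 3 of the 5 were called, beside 39.7% of all genes. ACSL1 and TECR, the reductase of the last step, rose and ACSL4 fell, by 0.98 ± 0.20 (edgeR adjusted p = 0.00114), and the list median was 0.50. The TECR call was lost without KO replicate 2 or 3 or OE replicate 2 (edgeR adjusted p = 0.0585, 0.0902 and 0.0628) and with the correction for principal transcript length (0.11, edgeR adjusted p = 0.446).

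GNAI1, an inhibitory G protein alpha subunit, was at 58.6 ± 5.42 CPM in WT, 135.1 ± 3.73 in KO and 87.8 ± 11.8 in OE-labelled libraries. It rose by 1.20 ± 0.13 in KO against WT and by 0.58 ± 0.13 in OE against WT (edgeR adjusted p = 6.97e-06 and 0.00593). It fell by 0.62 ± 0.13 in OE against KO (edgeR adjusted p = 0.00122), but with the length correction that difference was -0.04 by whole exon length and -0.01 by the principal transcript, and not called (edgeR adjusted p = 0.820 and 0.935). RAC1, a small GTPase that shapes the actin cytoskeleton, rose by 0.32 ± 0.10 in OE against KO (edgeR adjusted p = 0.0234). The RAC1 call was lost with its sign kept under 5 of 19 other ways of processing. Its edgeR adjusted p was up to 0.0954 when 1 library was left out. Corrected for the length of the principal transcript, the RAC1 log2 fold change turned to -0.11 and was not called (edgeR adjusted p = 0.383).

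Among 5 genes for proteins that bind sphingosine kinases, SPHKAP, an anchoring protein known to bind SPHK1, was not detected in KO. It had 24, 4 and 20 counts in WT, 0 in each KO library, and 18, 9 and 8 in OE-labelled libraries. Against a floor of 3 counts per library, it was at least 5.53-fold lower in KO than in WT (edgeR adjusted p = 0.00147) and at least 3.99-fold higher in OE than in KO (edgeR adjusted p = 0.00178). CIB1, which helps bring SPHK1 to the membrane, was at 69.7 ± 7.66 CPM in WT, 61.3 ± 6.60 in KO and 113.0 ± 33.0 in OE-labelled libraries. It rose by 0.69 ± 0.17 in OE against WT and by 0.88 ± 0.17 in OE against KO (edgeR adjusted p = 0.0111 and 0.000887), and the former call was lost without WT replicate 3 (0.61, edgeR adjusted p = 0.0571). These were the calls among the 5: 1 in KO against WT, 1 in OE against WT and 2 in OE against KO. They are near the 18.8%, 20.7% and 39.7% of all genes called. The list medians were -0.11 in KO against WT, -0.18 in OE against WT and -0.21 in OE against KO. Of 3 genes for intracellular S1P binding proteins, HDAC1 and HDAC2 were not called, and PHB2 rose by 0.39 ± 0.12 in OE against KO (edgeR adjusted p = 0.0194). The share of all genes called in that comparison was 39.7%. With the length correction PHB2 was at 0.12 by whole exon length and 0.07 by the principal transcript, and not called (edgeR adjusted p = 0.349 and 0.526).

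**Figure D5:**
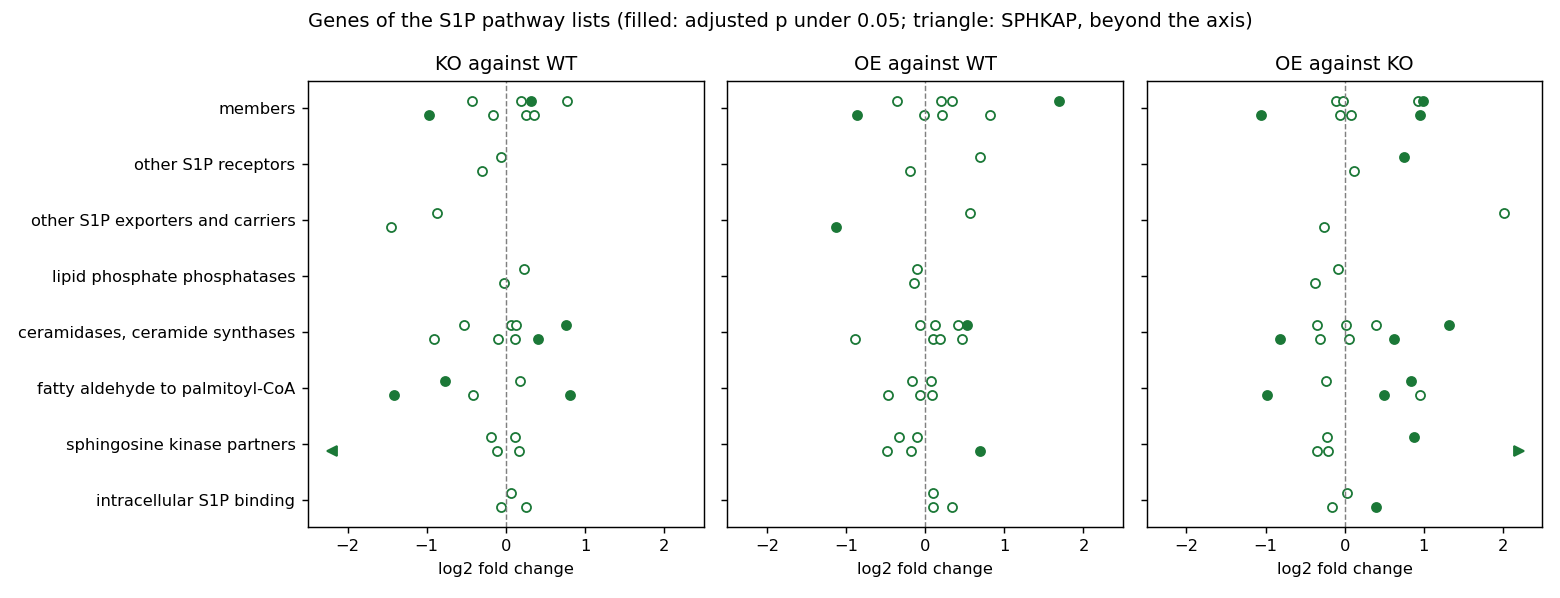
Log2 fold change of every tested gene of the 10 and of 7 other pathway lists in the 3 comparisons, 1 row per list, with filled points for an adjusted p under 0.05 and a triangle for SPHKAP, which lies beyond the axis. Most points lie within 1 of 0, and filled points fall on both sides of 0 in several lists.

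Over the 9 libraries, the genes whose log2 CPM followed SGPL1 most closely, among 11067 with at least 20 counts in every library, were GNG2, KIAA1191, ZFAND5, CANX and KCTD12, with Pearson r of 0.995, 0.988, 0.983, 0.982 and 0.982. A total of 153 genes had r above 0.9. The 9 points fall in 3 groups and share libraries, so r is given as a description. The named genes were picked by r, so their group levels follow from that choice. KIAA1191 and CANX both lie on chromosome 5, starting at bases 176346062 and 179678628, and a change shared by that region was not tested. GNG2, a G protein gamma subunit, was at 22.7 ± 3.66 CPM in WT, 4.18 ± 0.834 in KO and 21.1 ± 3.82 in OE-labelled libraries. CANX, a chaperone of the endoplasmic reticulum, was at 1527 ± 54.1 CPM in WT, 823.5 ± 56.5 in KO and 1512 ± 132.9 in OE-labelled libraries.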

How the data were processed

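RNA counts were analysed for 3 WT, 3 KO and 3 OE-labelled libraries, grouped by title and genotype label. The authors deposited raw read counts per gene, made with featureCounts 1.5.2 and an Ensembl 101 annotation of GRCh38, per the file headers, whose command sets no strand, multi-mapping or overlap option. With these defaults, strand is ignored, and multi-mapping reads and reads over several genes are dropped. Per the submitters' processing notes, the tools were FastQC, HISAT2 1.03, Subread, featureCounts 0.1.0 and DESeq2, so the featureCounts version differs between sources. No line lacked a gene identifier.

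Counts were tested with edgeR 4.0.16 (R 4.3.3): a filterByExpr minimum count of 10, TMM scaling, a quasi-likelihood F test with group as the only term, all 9 libraries in one fit, and Benjamini-Hochberg adjustment over the 14150 genes kept. A call is an adjusted p under 0.05. Log2 CPM used a prior count of 2. The common biological coefficient of variation was 0.15 and log2 fold changes had a median SE of 0.187 in each comparison, which sets the precision at these depths. No pair of libraries of a group agreed within sampling noise. Gene lengths are the exon lengths in the files, or the GENCODE 29 principal transcript, an alternative chosen after seeing the data. Other alternatives were RLE size factors, library totals, no filter, DESeq2 1.42.0, limma-voom (limma 3.58.1), only the groups compared, a replicate block and leaving out libraries.

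The 10 genes and all lists were chosen with earlier results of these data known. All 10 are named. Some called genes of the list of proteins that act downstream of the receptors, both higher and lower ones, are not reported here, so no count or median is given for that list and its named genes do not stand for it. Otherwise, called genes of the lists are named, together with uncalled ones where a count of 5 or fewer needs it, and the 5 genes most like SGPL1.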

Additional observations from a re-analysis of the deposited data

How the results depend on the processing

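Of the calls on the 10 genes, those of SGPL1 in KO against WT and OE against KO, and of ABCC1 in OE against WT and OE against KO, were kept under all 19 alternatives. The other 3 calls were lost as given beside them: ALDH3A2 under 8 of 19 alternatives, SPHK1 under 5 and S1PR2 under 5. The cause was not tested. Among genes of the other lists, the calls of CERS2, ACSL6, CERS6 and ACSL4 in KO against WT were lost under 9, 4, 3 and 2 of 19 alternatives. Those of ABCA1, CERS5 and CIB1 in OE against WT were lost under 6, 2 and 1. In OE against KO those of RAC1, S1PR5, PHB2, TECR, GNAI1 and CERS6 were lost under 6, 5, 5, 4, 2 and 1. SPHK1 and S1PR2 had at most 49 and 43 counts in a library, and SGPP2 and SPNS2 had too few for a test.

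The number of the 8 genes called in KO against WT was 1 with library totals, 1 with offsets for whole exon length and 4 without WT replicate 2 and OE replicate 2, beside 2629, 3132 and 3044 of all genes. In OE against WT it was 4 with offsets for either length, beside 2806 and 2907 (principal transcript) of all genes, and in OE against KO 5 with offsets for whole exon length, beside 5352. SGPL1 in OE against WT, near 0, changed sign without the filter (0.0075), with the offsets (0.14 and 0.24 for the principal transcript) and without WT replicate 2 and OE replicate 2 (0.013). In OE against KO the length offsets turned ALDH3A2 to 0.40 (0.029 for the principal transcript), S1PR3 to 0.44 (0.51) and RAC1, for the principal transcript, to -0.11. Without WT replicate 2 and OE replicate 2, ABCC1 in KO against WT turned to -0.015, and in OE against KO SGPP1 turned to 0.020 and S1PR3 to 0.17. With library totals the median of all genes in OE against WT moved by -0.12, and 765 genes were called higher and 2190 lower, against 1365 and 1559.

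Leaving out 1 library at a time gave 1 to 3 of the 8 genes in KO against WT and 1 to 2 in OE against WT. Over all genes it gave 1764 (without KO replicate 2) to 3214 calls in KO against WT and 1244 (without WT replicate 3) to 3673 in OE against WT, with 1381 without WT replicate 1 and 1849 without OE replicate 2. The log2 fold change ran from -0.080 to 0.095 for SGPL1 in OE against WT and from -0.016 to 0.36 for ABCC1 in KO against WT. In OE against KO it ran from -0.054 to 0.22 for SPHK2, from -0.11 to 0.021 for SGPP1 and from -0.11 to 0.17 for S1PR3.

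The labels do not say whether same-numbered libraries share a batch. The correlations of their deviations from the group means ran from -0.138 to 0.246. Those of differently numbered libraries of different groups ran from -0.281 to 0.224. With the replicate number as a block, 4 of the 8 genes were called in KO against WT, with SPHK2 and S1PR3 added, and 3235 genes in place of 2655. In OE against WT 3 were called, with S1PR3 added (0.33, edgeR adjusted p = 0.0357), and 3757 genes in place of 2924.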
